A study of Mus musculus with 36 samples.

Results

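The genes described here encode the proteins of the cytosolic ribosome, the particle that makes nearly all of a cell's protein. Of 51912 gene entries in the deposited tables, 89 carry a symbol of the Rps, Rpl or Rplp form or Rpsa, and 83 of these are annotated as protein-coding. The 80 with a mean of at least 1 TPM over the 36 libraries (TPM, a length-corrected share of all transcripts in a library) are the members, 32 of the small and 48 of the large subunit. The threshold fell in a wide gap, because the lowest member, Rpl5, averaged 67.5 TPM and the 3 coding genes left out averaged 0.253 TPM (Rpl39l), 0.207 TPM (Rpl10l) and 0.080 TPM (Rpl3l). All 80 members passed the filter on low counts.

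Mouse HM1 embryonic stem cells, plated without feeders, were first kept in 10 ng/ml bFGF and then, for the last day before day 0, in bFGF with 5 µM CHIR99021, 10 µM SB431542 and 2 µM DMH1, and all groups share this history. From day 0 they received 100 nM retinoic acid and 500 nM SAG, a Hedgehog pathway agonist, to make motor neurons. Polyadenylated RNA was sequenced on days 0, 0.5, 1, 1.5, 2, 2.5, 3, 3.5, 4, 5, 6 and 7, with 3 replicates each. Day 0 is labelled control, there is no untreated arm at later days, and the agents cannot be told apart from time in culture. HM1 is 1 line, and the titles number the replicates as biological without saying what was separate between them, so p-values cover whatever spread these libraries hold.

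Ribosomal proteins bind ribosomal RNA in fixed proportion, small subunit proteins forming the particle that reads the message and large subunit proteins the one that joins amino acids. Their messages begin with a C followed by a run of pyrimidines, the 5′ terminal oligopyrimidine or TOP motif, through which mTOR signalling controls their translation. Dividing progenitors are known for high ribosome production, which declines as neurons mature.

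The annotated starts showed this motif in a minority of the members. Of the 80 members, 60 matched an entry of the RefSeq promoter table (GRCm38.p6). A C followed by at least 4 pyrimidines stood exactly at the annotated start in 13 of these 60 (21.7%), against 3.01% of all 27025 genes in the table, and began within 5 bases of it in 29 (48.3%) against 21.2%. The remaining matched members, Rplp0, Rpsa and Rpl5 among them, had no such run within that distance. These starts are annotated ones. Where transcripts begin in these cells was not measured, so the search does not show that a member lacks the motif. The windows below run from 10 bases before the start to 20 bases from it, 5′ to 3′ on the gene's strand. Capitals mark pyrimidines from the C at the annotated start onward. Pyrimidines directly before the start are in small letters and were not counted. All were taken from the 13 with a run at the exact start, to show runs of different counted length in members of both subunits. They do not stand for the other members.
Rps6, chr4:86857348-86857377, minus strand: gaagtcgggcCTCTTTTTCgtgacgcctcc
Rps27, chr3:90213629-90213658, minus strand: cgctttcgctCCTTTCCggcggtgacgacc
Rps10, chr17:27635225-27635254, minus strand: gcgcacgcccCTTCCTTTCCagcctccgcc
Rpl38, chr11:114668570-114668599, plus strand: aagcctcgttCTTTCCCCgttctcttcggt
Rplp2, chr7:141447641-141447670, plus strand: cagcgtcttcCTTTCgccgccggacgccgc
Rpl35, chr2:39005112-39005141, minus strand: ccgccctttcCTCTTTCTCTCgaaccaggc
Rpl15, chr14:18270967-18270996, minus strand: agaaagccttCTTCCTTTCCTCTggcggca
Counted from the annotated start, the run in these windows is as short as 5 bases in Rplp2 and as long as 13 in Rpl15. In Rplp2, Rpl35 and Rpl15, among others, pyrimidines also stand directly before the start, so the whole stretch is longer. Within the 300-base promoter windows, on either strand, the letters CCGGAAG were found in 25 of 60 members (41.7%) against 9.93% of all genes, ATGGCGGC in 4 (6.67%) against 2.60%, and TATAAA in 7 (11.7%) against 15.7%. These are letter matches and show no binding.

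Together the members took up a smaller share of the transcripts at the end of the course than at its start. Summed over the 80 members, the level was 81592, 77594 and 79554 TPM at day 7, against 164083, 155346 and 166105 TPM at day 0. All 3 day 7 libraries lay below all 3 day 0 libraries, and the mean share was 7.96% of TPM at day 7 against 16.2% at day 0, a ratio of 0.492. No test was run on this sum, since it is a score over the members. As a share of the expected counts, which are not corrected for length, the members held 2.33% at day 7 against 5.83% at day 0, a lower ratio of 0.399. In bulk RNA, fewer cells of a type and less RNA per cell cannot be told apart.

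The decline was uneven over the days. The mean share of TPM was 16.2% at days 0 and 0.5, 17.0% at day 1, 15.6% at day 1.5 and 16.1% at day 2. It was 13.5% at days 2.5 and 3, 10.9% at days 3.5 and 4, 10.2% at day 5, 8.64% at day 6 and 7.96% at day 7. Libraries of day 2 (155039 to 163779 TPM) and day 2.5 (133179 to 137717 TPM) did not overlap, nor did those of day 3 (133786 to 135542 TPM) and day 3.5 (106166 to 111159 TPM). Day 6 had the widest spread of any day, with 94287, 85080 and 79954 TPM, and overlapped day 7. The gaps after day 2 and after day 3 both lead from a full day to a day sampled between full days. In a contrast of such days with neighbouring full days, chosen after the data had been seen, 31 members were lower and 4 higher (edgeR). Over all genes tested, 25.8% were lower and 29.2% higher. The part of this difference in the shape was not tested.

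**Figure D1:**
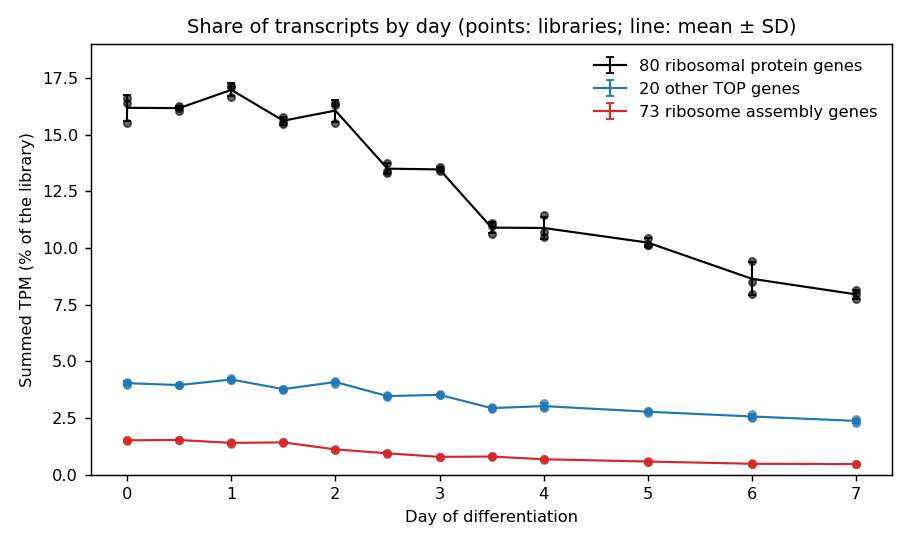
Summed TPM as a percentage of each library (y axis) by day of differentiation (x axis) for the 80 ribosomal protein genes, 20 other TOP genes and 73 ribosome assembly genes; points are libraries and lines join means with SD bars. The ribosomal protein genes hold 16.2% at day 0 and 7.96% at day 7, and lower values at days 2.5 and 3.5 than at the full days before them.

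Single members followed the sum with few exceptions. The highest mean TPM was at day 1 for 49 members, at day 0 for 15, at day 0.5 for 7, at day 2 for 7, at day 1.5 for 1 (Rpl27) and at day 7 for 1 (Rpl5). The lowest was at day 7 for 74 members, at day 6 for 5 and at day 3 for 1 (Rpl5). In edgeR's quasi-likelihood test over the 12 time points together, all 80 members were called at a Benjamini-Hochberg adjusted p under 0.05, as were 96.1% of all 17990 genes tested, so this call says little about the members.

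**Figure D2:**
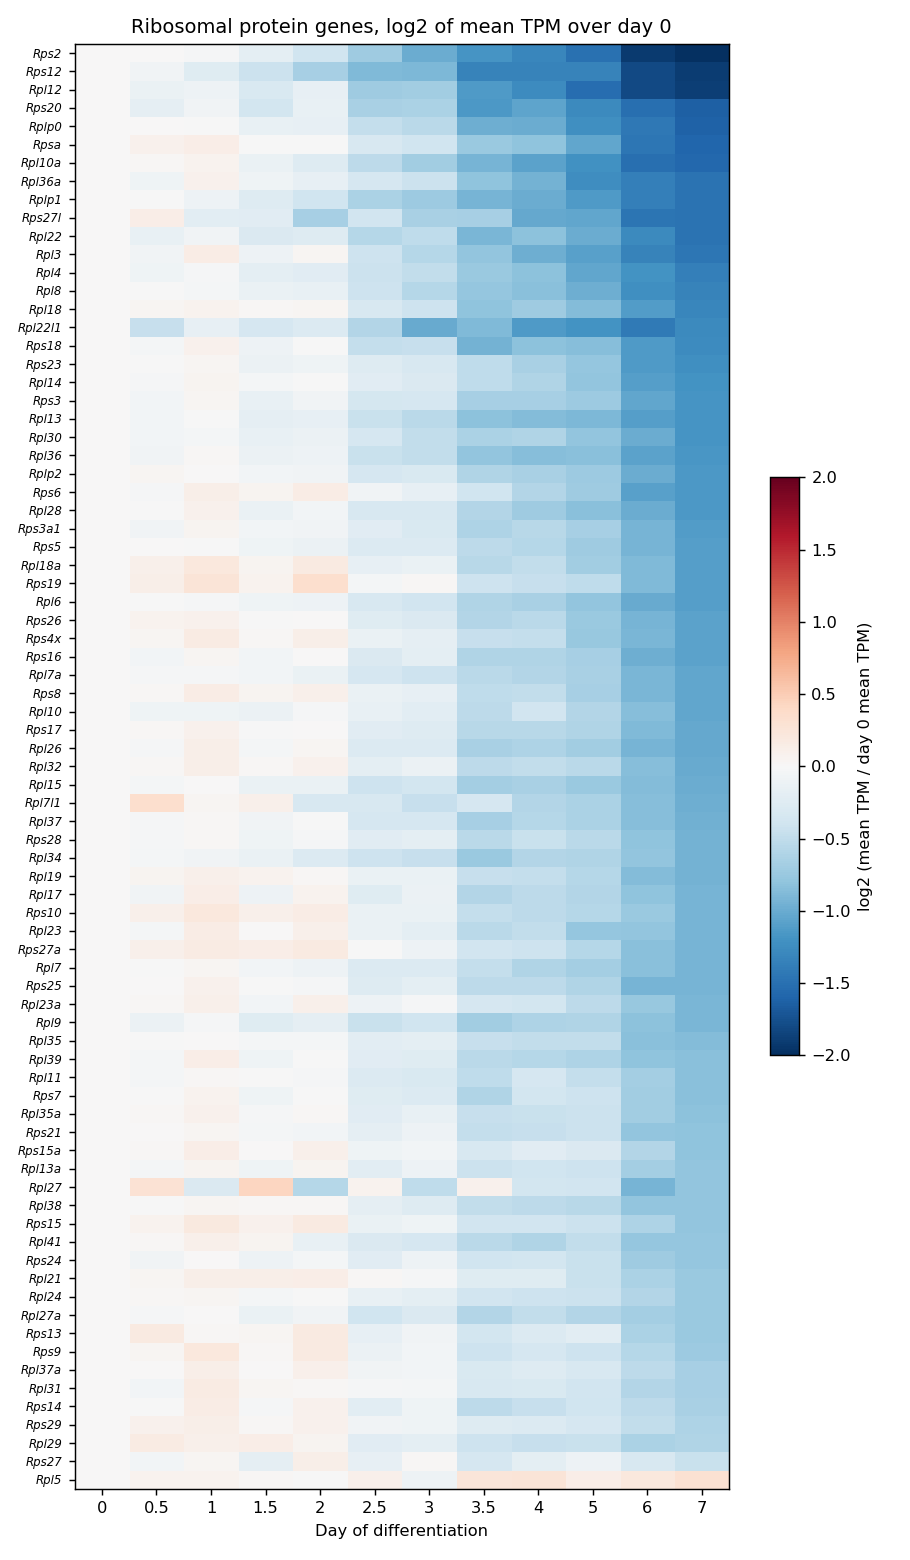
Log2 of the mean TPM of 79 of the 80 ribosomal protein genes relative to its day 0 mean (colour), by day (columns), ordered by the day 7 value with the deepest decline at the top. Rps2 at 0.250 of its day 0 level heads the map, and Rpl5 at 1.24 of it ends the map as the only member above its day 0 level at day 7.

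Between the end and the start of the course, 79 members fell and 1 rose (edgeR quasi-likelihood, adjusted p under 0.05). Over all genes tested, 41.2% were lower and 44.1% higher. The members' median log2 fold change was −1.35, beside 0.05 over all genes, with −1.38 for the small and −1.33 for the large subunit. On the log2(TPM + 1) scale the median of all genes itself moved by 0.28, 63.5% of all calls were then rises (51.7% from counts), and the members' median was −1.00 with the same 79 and 1 counts.

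The 4 largest falls were those of Rps2, Rps12, Rpl12 and Rplp0. Rps2, a small subunit protein near the channel where messenger RNA enters (chr17:24718116-24721929, plus strand), had 986, 915 and 989 TPM at day 7, against 3752, 3860 and 3925 TPM at day 0. Every day 7 library lay far below every day 0 library. The log2 fold change was −2.36 ± 0.05 (approximate SE, n = 3 each, edgeR adjusted p = 8.82e-29). Rps2 shares exon sequence with Snhg9 on the other strand, and whether counting used strand is not given in the sources used here, so its value is uncertain.

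Rps12, a small subunit protein, had 222, 233 and 233 TPM at day 7, against 811, 798 and 963 TPM at day 0 (log2 fold change −2.27 ± 0.12, edgeR adjusted p = 2.18e-18). Rpl12, which sits at the base of the stalk that recruits elongation factors, had 366, 339 and 352 TPM at day 7, against 1249.9, 1349 and 1303 TPM at day 0. Its log2 fold change was −2.26 ± 0.06 (edgeR adjusted p = 1.53e-27). In both genes the days were separated with no overlap. Both share reads with copies: Rps12 held 36.2% and Rpl12 40.7% of the counts of gene and copies, and with copies added their log2 fold changes were −2.13 and −2.27, beside −2.40 for Rps2. Rpl12 also shares exon sequence with Lrsam1 on the other strand, so its value is uncertain too. The stalk itself is built of Rplp0, Rplp1 and Rplp2. Rplp0 had 636, 618 and 627 TPM at day 7, against 1929.7, 1846 and 1983 TPM at day 0, a log2 fold change of −1.99 ± 0.05 (edgeR adjusted p = 1.54e-27). Rplp1 had 1220, 1170 and 1207 TPM at day 7, against 3171, 3327 and 3536 TPM at day 0 (−1.84 ± 0.06, adjusted p = 1.72e-25). Rplp2 had 959, 919 and 924 TPM at day 7, against 2018, 2038 and 2178 TPM at day 0 (−1.53 ± 0.05, adjusted p = 2.39e-23). All 3 stalk genes fell with no overlap between the days, and the difference between them was not tested.

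Rps6, the small subunit protein phosphorylated by S6 kinase below mTOR, had 794, 733 and 734 TPM at day 7, against 1791, 1561 and 1659 TPM at day 0 (log2 fold change −1.51 ± 0.06, edgeR adjusted p = 3.72e-22). Rpsa, which also serves as a laminin receptor, had 1146, 1086 and 1160 TPM at day 7, against 3410, 3248 and 3553 TPM at day 0 (−1.89 ± 0.05, adjusted p = 1.17e-27). Both days were again separate in each gene. Rps27a, made as a fusion with ubiquitin, had 1462, 1427 and 1459 TPM at day 7, against 2860, 2561 and 2861 TPM at day 0 (−1.30 ± 0.06). It shares exon sequence with Clhc1 on the other strand, so its value is uncertain. Rpl11, which binds Mdm2 and stabilises p53 when ribosome production is disturbed, had 846, 818 and 857 TPM at day 7, against 1500, 1457 and 1542 TPM at day 0 (−1.20 ± 0.07). Rpl13a, the most abundant member with a mean of 4135 TPM over the series, had 2901, 2712 and 2767 TPM at day 7, against 4986, 4477 and 5085 TPM at day 0 (−1.36 ± 0.06). Rpl38, known in the mouse for its part in translating Hox messages, had 1246, 1128 and 1225 TPM at day 7, against 2106, 1983 and 2106 TPM at day 0 (−1.16 ± 0.05).

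The smallest called decline belonged to Rps27, a zinc-finger protein of the small subunit. It had 2147, 2006 and 2000 TPM at day 7, against 2888, 2667 and 2803 TPM at day 0, a log2 fold change of −0.80 ± 0.07 (edgeR adjusted p = 6.43e-13). Day 7 libraries were all lower than day 0 libraries. Rps29 (−0.98) was also among the smallest falls. Of 9 members whose human counterparts are mutated in Diamond-Blackfan anaemia, an inherited failure of red cell production, 8 fell between day 0 and day 7 and 1, Rpl5, rose, with a median of −1.29 against −1.35 for all members.

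Rpl5, which forms a particle with Rpl11 and 5S ribosomal RNA (chr5:107900502-107909005, plus strand), was the 1 member that rose. It had 79.5, 81.6 and 71.3 TPM at day 7, against 67.9, 61.5 and 57.8 TPM at day 0, a log2 fold change of 0.26 ± 0.06 (edgeR adjusted p = 0.000107). The days did not overlap. Rpl5 shares exon sequence with Fam69a on the other strand, and the use of strand is not given, so its value is uncertain. The rise belongs to a small part of the reads that resemble Rpl5. Processed pseudogenes, copies of a spliced message inserted in the genome, can take the same reads, and RSEM divides such reads between them. Rpl5 held 5.02% of the expected counts of the gene and its 7 copies, and the copy Gm15500 averaged 1259 ± 42.0 TPM at day 7 and 2849 ± 159 TPM at day 0 (SD, n = 3 each). With the copies' counts added, Rpl5 was lower at day 7 than at day 0, with a log2 fold change of −1.45 ± 0.05 (edgeR adjusted p = 9.37e-24), close to the members' median of −1.38 in that fit. Adding the copies was chosen after the data had been seen.

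Copies were common among the members. A sequence match of at least 95% identity over at least 100 bases tied 615 copies to 77 members, and 41 of the copies averaged at least 100 TPM. The median member held 97.8% of the counts of itself and its copies, but 16 held under 50%, among them Rpl27 (9.88%), Rpl34 (10.5%), Rpl29 (14.5%) and Rpl3 (18.5%). Rps6 held 51.3%, Rplp0 60.1%, Rps2 63.4%, Rpl11 74.8% and Rps27a 76.8%. With copies added, all 80 members fell between day 0 and day 7, and their summed TPM had a ratio of 0.490. For Rps27 the log2 fold change was −0.81 in that fit, and for Rpl3, a protein near the peptidyl transferase centre, it was −1.68 with copies and −1.81 without.

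**Figure D3:**
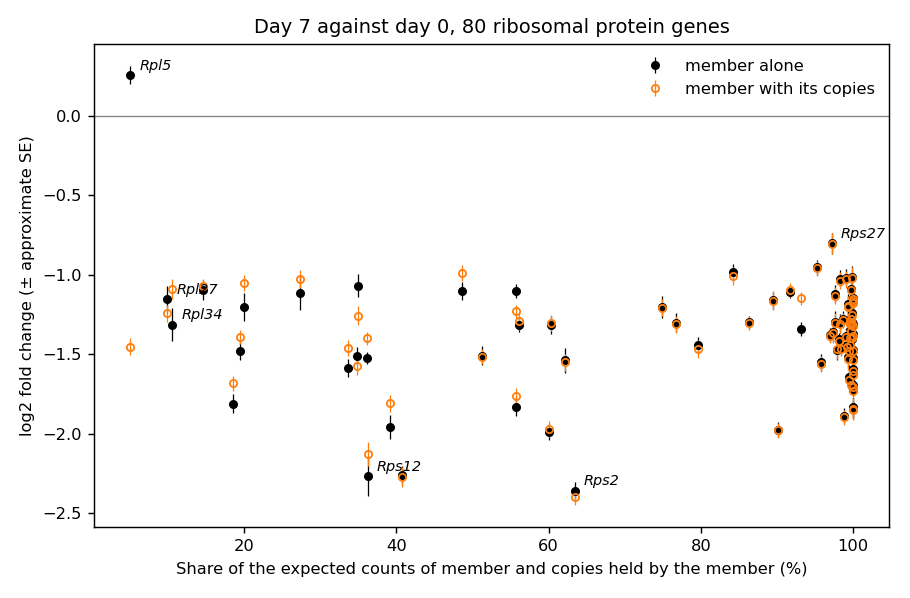
Log2 fold change of day 7 against day 0 with approximate SE (y axis) for each of the 80 ribosomal protein genes, plotted by the share of the expected counts that the gene holds among itself and its copies (x axis, %). Filled points are genes alone and open points the same genes with copies added; Rpl5, at 5.02%, is at 0.26 alone and at −1.45 with copies.

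The stages differed in how many members moved. At day 0.5 against day 0, early after retinoic acid and SAG were added, 4 of the 80 members rose and 4 fell, where 27.6% of all genes were higher and 26.7% lower. The members' median log2 fold change was −0.0032. Rpl7l1, a relative of Rpl7 linked to ribosome assembly, had 146, 147 and 146 TPM at day 0.5, against 115, 116 and 116 TPM at day 0, a log2 fold change of 0.34 ± 0.04 (edgeR adjusted p = 1.74e-08). Rpl22l1, the paralogue of Rpl22, had 512, 524 and 461 TPM at day 0.5, against 735, 678 and 657 TPM at day 0, with −0.46 ± 0.07 (adjusted p = 2.56e-06). The replicates of these genes did not overlap between the days. Rpl22l1 shares exon sequence with Gm33051 on the other strand, so its value is uncertain.

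Further called members of this stage moved less. Rpl27 rose, with 196, 188 and 201 TPM at day 0.5, against 161, 148 and 169 TPM at day 0. Rpl5, with 65.8, 68.6 and 62.8 TPM at day 0.5, against 67.9, 61.5 and 57.8 TPM at day 0, was called higher by counts although its TPM overlapped. With copies added, Rpl27 had a log2 fold change of 0.07 (edgeR adjusted p = 0.241) and Rpl5 one of −0.05 (adjusted p = 0.443), neither called. Rps20 fell, with 2312, 2401 and 2289 TPM at day 0.5, against 2622, 2617 and 2680.05 TPM at day 0. Rps24, with 3142, 3246 and 3157 TPM at day 0.5, against 3472, 3130.2 and 3405 TPM at day 0, overlapped in TPM. So did Rpl12, with 1159.6, 1269.9 and 1144 TPM at day 0.5, against 1249.9, 1349 and 1303 TPM at day 0 (adjusted p = 0.0495 from counts).

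At day 2 against day 0.5, 38 members fell and 0 rose, beside 34% of all genes lower and 33.9% higher, and the median was −0.12. On log2 of TPM this stage looked different, since limma called 8 members higher and 17 lower with a pseudocount of 1, with a members' median of −0.0053. Of all 17990 genes, that fit called 6672 higher and 4580 lower, with a median of 0.065. Rpl27, a large subunit protein, had 106.0, 114 and 104 TPM at day 2, against 196, 188 and 201 TPM at day 0.5, with −0.98 ± 0.08 (edgeR adjusted p = 7.6e-13). With copies added this was −0.45. Rps27l, the paralogue of Rps27 and a p53 target, had 408, 398 and 393 TPM at day 2, against 684, 726 and 693 TPM at day 0.5, with −0.92 ± 0.06 (edgeR adjusted p = 1.32e-14). Rpl7l1 had 88.6, 94.8 and 93.8 TPM at day 2, against 146, 147 and 146 TPM at day 0.5, with −0.78 ± 0.04. Rps12 had 534, 529 and 566 TPM at day 2, against 879, 698 and 880.4 TPM at day 0.5, with −0.70 ± 0.11. In all 4 genes the days were separate. This comparison and the one before it share the day 0.5 libraries. Day 0.5 was sampled between full days, and at such days Rpl27, Rps27l and Rpl7l1 were higher than at neighbouring full days. The part of this in both comparisons was not tested.

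At day 4 against day 2, 78 members fell and 0 rose, where 31.8% of all genes fell and 33.1% rose. The median was −0.74. Rpl12 had 525, 558 and 541 TPM at day 4, against 1219, 1088 and 1156 TPM at day 2, the largest fall at −1.30 ± 0.06 (edgeR adjusted p = 4.83e-20). Rpl3 followed, with 307, 320.2 and 313 TPM at day 4, against 639, 611 and 646 TPM at day 2 (−1.18 ± 0.06). Rps20 had 1244, 1345 and 1208 TPM at day 4, against 2474, 2288 and 2422 TPM at day 2, and Rps2 had 1506, 1561 and 1622 TPM at day 4, against 2895, 2995 and 2871 TPM at day 2, both at −1.10. None of these groups overlapped. Rpl5 (0.12, edgeR adjusted p = 0.0584) and Rpl27 (0.01, adjusted p = 0.934) were not called, and with copies added they had −0.76 and −0.54, both called.

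At day 7 against day 4, 79 members fell and 0 rose, where 32.9% of all genes fell and 33.5% rose. The median was −0.51. Rpsa led with 1146, 1086 and 1160 TPM at day 7, against 1861, 2017 and 1956 TPM at day 4, a log2 fold change of −0.81 ± 0.05 (edgeR adjusted p = 8.58e-17). Rps2 had 986, 915 and 989 TPM at day 7, against 1506, 1561 and 1622 TPM at day 4 (−0.76 ± 0.05). Rps19, the gene most often mutated in Diamond-Blackfan anaemia, had 1230.2, 1174 and 1236 TPM at day 7, against 1845, 1905 and 1932 TPM at day 4 (−0.72 ± 0.06). Rpl10, which helps join the subunits, had 1422, 1228 and 1363 TPM at day 7, against 2053, 2224 and 2036 TPM at day 4 (−0.70 ± 0.05). These 4 genes were separate between the days. Rpl5 (0.06, adjusted p = 0.35) was not called, and with copies it was −0.57 (edgeR adjusted p = 3.72e-12).

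The proportions within 3 paralogue pairs were compared, and no pair passed its test, which 3 against 3 libraries cannot do at 0.05. Rps27l amounted to 11.5%, 10.9% and 11.1% of the TPM of Rps27 at day 7, against 22.4%, 22.8% and 23.3% at day 0, with no overlap. The log2 ratio was lower by −1.03, with an exact two-sided permutation p of 0.10, the smallest that 3 against 3 libraries allow (adjusted p = 0.15 over 3 pairs). Rpl22l1 amounted to 50.4%, 43.0% and 48.0% of Rpl22 at day 7, against 42.6%, 43.1% and 38.3% at day 0, which overlap (difference of the log2 ratio 0.19, exact permutation p = 0.20). From expected counts that difference was −0.34, opposite in sign, and the cause was not tested. Rpl7l1 amounted to 3.57%, 3.41% and 3.65% of Rpl7 at day 7, against 3.67%, 3.66% and 3.68% at day 0, with no overlap (difference −0.05, exact permutation p = 0.10).

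Among the pair partners, Rpl22 had 611, 596 and 601 TPM at day 7, against 1724, 1572 and 1715 TPM at day 0, and Rpl22l1 had 308, 257 and 288 TPM at day 7, against 735, 678 and 657 TPM at day 0. Rpl7 had 1697, 1637 and 1640 TPM at day 7, against 3144, 3168 and 3161 TPM at day 0. Rpl7l1 had 60.5, 55.7 and 59.9 TPM at day 7, against 115, 116 and 116 TPM at day 0, so both Rpl7 genes were lower in every day 7 library. Rps27l had 246, 219 and 222 TPM at day 7, against 648, 608 and 652 TPM at day 0. Rps4x, the X-linked form of S4, had 1338, 1258 and 1293 TPM at day 7, against 2774, 2715 and 2696 TPM at day 0. Rpl3 had 228, 217 and 234 TPM at day 7, against 610.3, 605 and 636 TPM at day 0. Rpl10 had 1422, 1228 and 1363 TPM at day 7, against 2858, 2597 and 2755 TPM at day 0. No library of day 7 reached the day 0 range in any of these genes. Rpl39, a small protein of the exit tunnel, had 633, 600 and 600 TPM at day 7, against 1163, 1020 and 1086 TPM at day 0. All of these fell in the count test. Rps4l, annotated as a pseudogene and no member, had 101, 100.0 and 104 TPM at day 7, against 196, 205 and 227 TPM at day 0. The testis-associated Rpl10l and Rpl39l and the muscle-associated Rpl3l stayed below 1 TPM in all 36 libraries.

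**Figure D4:**
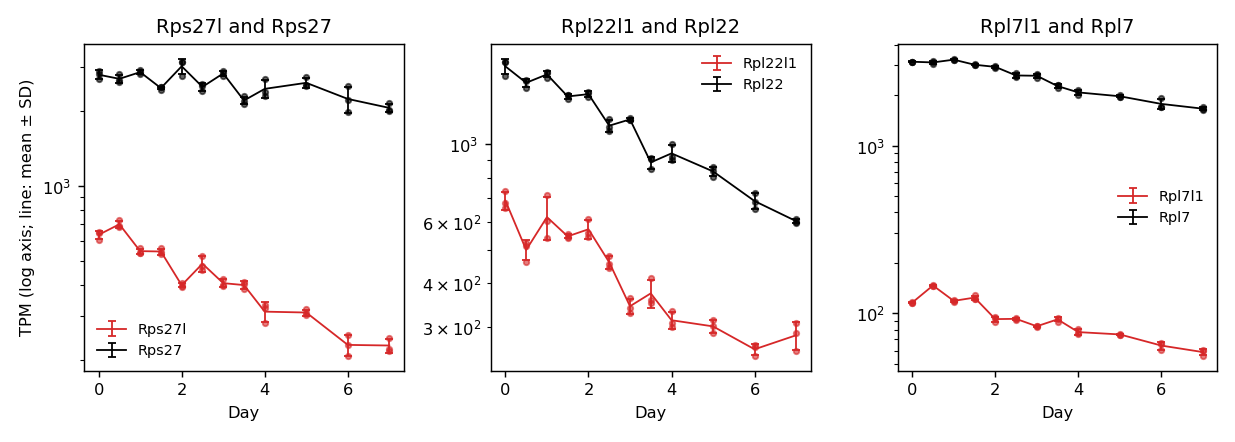
TPM (log y axis) by day (x axis) of 3 paralogue pairs, with points for libraries and lines for means with SD bars. Rps27l is at 11.2% of Rps27 at day 7 against 22.8% at day 0 (exact permutation p = 0.10, not called), and Rpl7l1 is at 3.54% of Rpl7 at day 7 against 3.67% at day 0.

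Genes that act with the members were followed for comparison. Of 73 measured ribosome assembly and pre-rRNA genes, 72 fell between day 0 and day 7 and 0 rose, with a median of −1.73. Over all genes tested, 41.2% fell and 44.1% rose. At day 2 against day 0.5, 66 of 73 fell and 3 rose (median −0.63), where 38 of 80 members fell (median −0.12). Of all genes, 34% were lower and 33.9% higher at that step. Day 0.5 was sampled between full days. In a contrast of such days with neighbouring full days, 64 of 73 assembly genes were higher and 3 lower. Of the members, 31 were lower and 4 higher in it, and of all genes 25.8% were lower and 29.2% higher. The part of this in the step from day 0.5 to day 2 was not tested. No test compared the lists. Npm1, a nucleolar chaperone of assembling ribosomes, averaged 1047 ± 29.0 TPM at day 7 and 5513 ± 174 TPM at day 0, and Gnl3, or nucleostemin, 28.5 ± 1.23 TPM at day 7 and 180 ± 8.43 TPM at day 0 (SD, n = 3 each). Their log2 fold changes were −2.91 and −3.02. Rrn3, an RNA polymerase I factor, was not called (−0.06, edgeR adjusted p = 0.196).

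The 20 other TOP genes, which include translation factor genes and share the start motif, were called in both directions at the first stages. At day 0.5 against day 0, 4 fell and 3 rose, where 26.7% of all genes were lower and 27.6% higher. At day 2 against day 0.5, 11 fell and 3 rose, where 34% of all genes were lower and 33.9% higher. With limma on log2(TPM + 1) that stage had 6 lower and 7 higher, beside 4580 lower and 6672 higher of all 17990 genes. All 20 fell at day 4 against day 2, at day 7 against day 4 and at day 7 against day 0 (median −1.16). Of all genes, 31.8%, 32.9% and 41.2% fell there. Their extremes were Pabpc1, the poly(A)-binding protein, at −2.37 and Eif3f at −0.34. Eif3f was level by TPM, with 214 ± 4.29 TPM at day 7 and 213 ± 17.9 TPM at day 0. Of 9 genes of the mTOR arm, 7 fell and 1 rose at day 7 against day 0, where 41.2% of all genes fell and 44.1% rose. Eif4ebp1, a repressor of cap-dependent translation, fell furthest, with 27.2 ± 2.04 TPM at day 7 and 262 ± 9.83 TPM at day 0, whereas the kinase gene Mtor was not called (0.03, edgeR adjusted p = 0.586). Of 78 mitochondrial ribosomal protein genes, 63 fell and 6 rose, with a median of −0.48. On log2(TPM + 1), the counts at day 7 against day 0 were 65 of 73 assembly genes lower and 3 higher, and 19 of 20 TOP genes lower. Of the mTOR arm genes 4 of 9 were lower and 2 higher, and of the mitochondrial ribosomal protein genes 39 of 78 were lower and 20 higher. Of all 17990 genes, that fit called 5501 lower and 9556 higher.

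**Figure D5:**
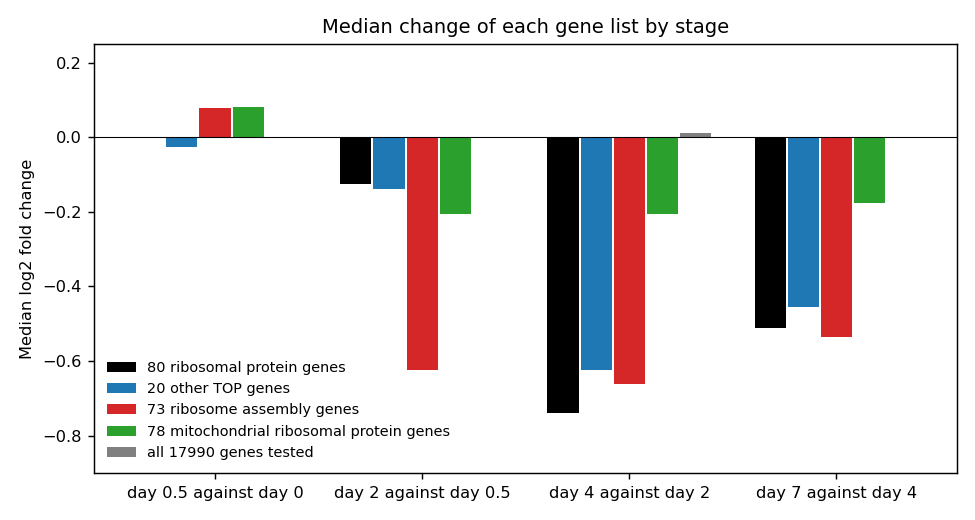
Median log2 fold change (y axis) of 4 gene lists and of all genes tested at 4 successive stages (x axis, later day against earlier day). At day 2 against day 0.5 the assembly genes are at −0.63 and the ribosomal protein genes at −0.12, and at day 4 against day 2 they are at −0.66 and −0.74. Day 0.5 was sampled between full days, and the part of this in the stages that include it was not tested.

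The libraries taken between full days were examined separately. In a contrast chosen after the data had been seen, the libraries of days 0.5, 1.5, 2.5 and 3.5 were set against the full days on either side. In it 31 members were lower and 4 higher, where 25.8% of all genes were lower and 29.2% higher, and the members' median was −0.05. With limma on log2(TPM + 1) the same contrast gave 58 members lower and 4 higher, with a median of −0.09. Of all 17990 genes, 5547 were lower and 3621 higher in that fit. Rpl27 was higher by 0.66 ± 0.04 (edgeR adjusted p = 9.29e-16), with mean TPM of 195, 131, 216, 108, 167, 112, 169 and 123 at days 0.5, 1, 1.5, 2, 2.5, 3, 3.5 and 4. Each of days 0.5, 1.5, 2.5 and 3.5 lay above the full day after it. With copies added the difference was 0.14. Rps27l (0.27), Rpl7l1 (0.25) and Rpl5 (0.13) were also higher, and Rps20 was the lowest at −0.20. Of the assembly genes 64 of 73 were higher and 3 lower, with a median of 0.21. The labels give a daily medium change but not the time of harvest after it, so its part was not tested.

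The makeup of the cultures also differed between day 7 and day 0. The timing of the markers and of the members over the days between was not compared here. All 36 libraries are labelled as neural progenitor cells, yet the 5 caudal epiblast markers summed to 1.05 to 2.06 TPM at day 7 against 550 to 604 TPM at day 0, and all 5 fell. Of 8 cycling cell markers 8 fell, their sum being 264 to 325 TPM at day 7 against 1350.2 to 1365 TPM at day 0. Of 8 neuron markers 7 rose and 1 (Mnx1) fell, with sums of 2583 to 2769 TPM at day 7 against 153 to 160 TPM at day 0. All 4 glial markers rose, to 3408 to 3557 TPM at day 7 against 12.0 to 14.1 TPM at day 0. Most of that day 7 sum was Fabp7, with a mean of 3188 TPM, beside 109 for Slc1a3, 95.8 for Nfia and 84.1 for Sox9. Progenitor markers (5 of 6 higher, 1 lower) summed to 448 to 475 TPM at day 7 against 103 to 109 TPM at day 0, and endothelial markers (3 of 5 higher, 1 lower) to 42.0 to 47.9 TPM at day 7 against 7.92 to 8.52 TPM at day 0. The means of the markers Wnt3a, Fgf8, Nkx1-2 and Cdx2 at day 7 were all under 0.1 TPM. The part of these shifts in the members' decline was not tested.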

How the data were processed

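Polyadenylated RNA of 36 libraries was quantified by the submitters. RSEM on GRCm38 followed demultiplexing by bcl2fastq 2.20.0, per the submitters' processing notes. The aligner, annotation release and use of strand are each not given in the sources used here. The authors deposited 1 table of expected counts, RSEM estimates that can be fractions of a read, and 1 of TPM. Library totals were 26567321 to 35757989 counts, and 0 columns were left unused.

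Expected counts were rounded and fitted with edgeR 4.0.16 in R 4.3.3 (filterByExpr, TMM factors 0.924 to 1.06, 12 groups, glmQLFit and glmQLFTest, 24 residual degrees of freedom). The 17990 genes kept, of 32047 with at least 1 count, were adjusted together by Benjamini-Hochberg, and calls are at an adjusted p under 0.05. The approximate SE divides the absolute log2 fold change by the root of the F value. The fit was tested on simulated data. Copies of members were found with blastn in GENCODE M21 transcripts, which also gave coordinates on GRCm38, counted from 1. Counts were not whole in at least 90% of libraries for 74 members, so reads were shared. Exons overlapped another gene on the same strand in 4 members (Rpl19, Rps10, Rpl13a and Rpl24). On the other strand they did so in 19, among them Rps2, Rpl12, Rpl5, Rpl22l1 and Rps27a.

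The members and gene lists were chosen with earlier results of these data known. Every member could be named, with replicate values for a panel of paralogues, a panel of single members and the 4 largest called rises and falls per comparison. Replicate numbers were not used to pair the samples in the main fit, and replicates differed by more than sampling noise (chi-square per degree of freedom 3 to 49.8). Other settings tried were DESeq2 1.42.0, its median-of-ratios scaling in edgeR, TMM without the members, no filter, only the 6 libraries compared, a replicate block, each replicate left out, limma 3.58.1 on log2 of TPM plus 1 or 0.1, pseudogenes or copies added, and a mean TPM of at least 10. Riok2 is not analysed here. Single-gene values of 1 member are not reported here; it remains in all counts and sums.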

Additional observations from a re-analysis of the deposited data

How the results depend on the processing

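The counts of members that fell at day 4 against day 2, at day 7 against day 4 and at day 7 against day 0 stayed within 1.5 times under every alternative run. For day 0.5 against day 0, the 4 higher became 7 with no filter and 12 with only the 6 libraries compared, and the 4 lower became 7 with only the 6 libraries. Leaving out 1 replicate gave 3 to 4 higher and 3 to 7 lower there, the 7 without day 0 replicate 2. For day 2 against day 0.5, limma on log2 of TPM gave 8 higher and 17 lower with a pseudocount of 1, and 8 and 18 with 0.1. For day 4 against day 2, 1 member was higher with median-of-ratios scaling, with DESeq2 and without day 2 replicate 3 (range 0 to 1 over the replicates left out), and 2 were higher with either limma fit. For days 0.5, 1.5, 2.5 and 3.5 against neighbouring full days, 31 lower became 58 with either limma fit. For day 7 against day 0, 0 were higher with copies added. Rpl5 reversed with copies added in 4 comparisons, to −0.05, −0.76, −0.57 and −1.45 (day 0.5 against 0, 4 against 2, 7 against 4 and 7 against 0). The Rpl22l1 to Rpl22 difference reversed to −0.34 from expected counts. As a share of expected counts the summed ratios were 0.945, 0.617, 0.687 and 0.399, for day 2 against 0.5, 4 against 2, 7 against 4 and 7 against 0, beside 0.993, 0.678, 0.731 and 0.492 from TPM; with copies, day 0.5 against day 0 gave 1.009 beside 0.999. The cause was not tested in these cases. Of 1872 values of single members under alternatives, 1813 kept their call, with the same direction where called. Another 29 lost and 26 gained a call, and 4 reversed. A change of sign in a value called in neither fit was counted among the 1813. The same-number correlations were −0.064 to 0.065 over the pairs of days compared, and the main fit did not pair samples by number. Whether same-numbered samples share an experiment is not given. With the replicate block, 37 members fell at day 2 against day 0.5 and 3 at day 0.5 against day 0, and the other counts were unchanged. Depth does not limit the members, whose lowest mean was 67.5 TPM, but reads shared with copies limit the 16 that hold under 50% of their counts.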
